A study of Mus musculus with 6 samples.

Results

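The histone genes described here are those whose transcripts cells make for DNA replication. Member rows were the rows of the deposited array table whose platform gene symbol begins with Hist1h to Hist4h or, in current naming, with H1f, H2ac, H2bc, H3c or H4c and a digit. The rule found 52 of the 28101 rows. Of these, 30 name 1 gene and 22 are shared rows, which name several histone genes of nearly identical sequence and count once each. Together they name 66 histone genes. The rule also took 5 genes best known from germ cells (H1f6, H1f7, H1f8, H2ac1 and H2bc1) and H1f10, a linker histone made outside S phase. The label of replication-dependent histones does not hold for H1f7, H1f8 and H1f10, and these 6 rows are described apart, which leaves 46.

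The arrays hold RNA of mouse regulatory T cells (Tregs), CD4+ T cells that restrain immune responses through the transcription factor Foxp3. Total T cells of wild-type C57BL/6 mice aged 6-8 weeks were transferred into CD3ε-/- mice, which make no T cells. The competent group came from recipients with MHC class II, and the deficient group from recipients lacking both CD3ε and MHC class II, the molecules that show peptides to the T cell receptor of CD4+ cells. After 5 days the CD4+ TCRβ+ CD25+ cells were sorted from lymph nodes and spleen. Each group has 3 arrays, labelled as biological replicates 1 to 3, and the labels do not state whether several recipients were combined for a replicate. The p-values therefore speak only of the spread among these preparations. The Treg markers stood high in both groups, with Foxp3 at 9.82 ± 0.05 (SD, n = 3) in the competent and 9.77 ± 0.09 (SD, n = 3) in the deficient group on the log2 scale of the table. The list of 8 Treg markers tested also holds Cd3e, Cd3g and Cd4, T cell genes that are not particular to Tregs. All 8 lay lower in the deficient group, with a median log2 difference of -0.11.

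Histones package DNA. Histones H3 and H4 form the core tetramer of the nucleosome, H2A and H2B add dimers to it, and linker histone H1 binds where the DNA enters and leaves. Dividing cells transcribe the replication-dependent genes in S phase, driven by cyclin E-Cdk2 and the coactivator NPAT, and the mRNAs end in a stem-loop instead of a poly(A) tail. Activated T cells raise them as they enter the cell cycle.

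Replication-dependent histone rows lay lower after 5 days in MHC II-deficient recipients, row after row, while few of them passed the test singly. A row was tested where its mean over the 6 arrays reached 5.00, the 25th percentile of all rows. Of the 46 rows 40 were tested, and in each of the 40 the mean of the deficient group was the lower one. Over all 21076 rows tested, 45% lay lower. The median log2 difference, deficient minus competent, was -0.44 over the 40 rows and 0.02 over all rows tested. Without the filter the median over the 46 rows was -0.42, with 43 of them lower. The others were the H3 rows of 1 gene, H3c4, H3c7 and H3c15. Both group means of every tested member row lay above the filter value. In RNA of a whole sort, fewer cells of a type and less RNA per cell cannot be told apart.

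Of the rows tested, 5 fell past the threshold and 0 rose. The test was limma's, with a Benjamini-Hochberg adjusted p under 0.05 over all rows. The 5 were H4c6, H1f5, a shared H4 row and 2 shared H3 rows, out of 45 member rows tested when the germ cell and replacement members are counted in. Over all rows, 1.19% were called lower and 1.06% higher. In 19 of the 40 rows all 3 deficient arrays lay below all 3 competent arrays, as did 11.7% of all rows tested. The reverse held for 0 of the 40 and for 11.5% of all rows. At an unadjusted p under 0.05, 25 of the 40 rows were lower, against 9.67% of all rows, and 0 were higher, against 7.81%. The count of 5 rested on every array but competent 3. It was 0 without competent 1, competent 2 or any single deficient array, where 19 to 25 rows were lower at an unadjusted p under 0.05, and 9 without competent 3. Quantile normalization left 1 call, H4c6, and the replicate block 3. The median over the 45 tested member rows stayed between -0.49 and -0.36 under all of these settings.

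**Figure D1:**
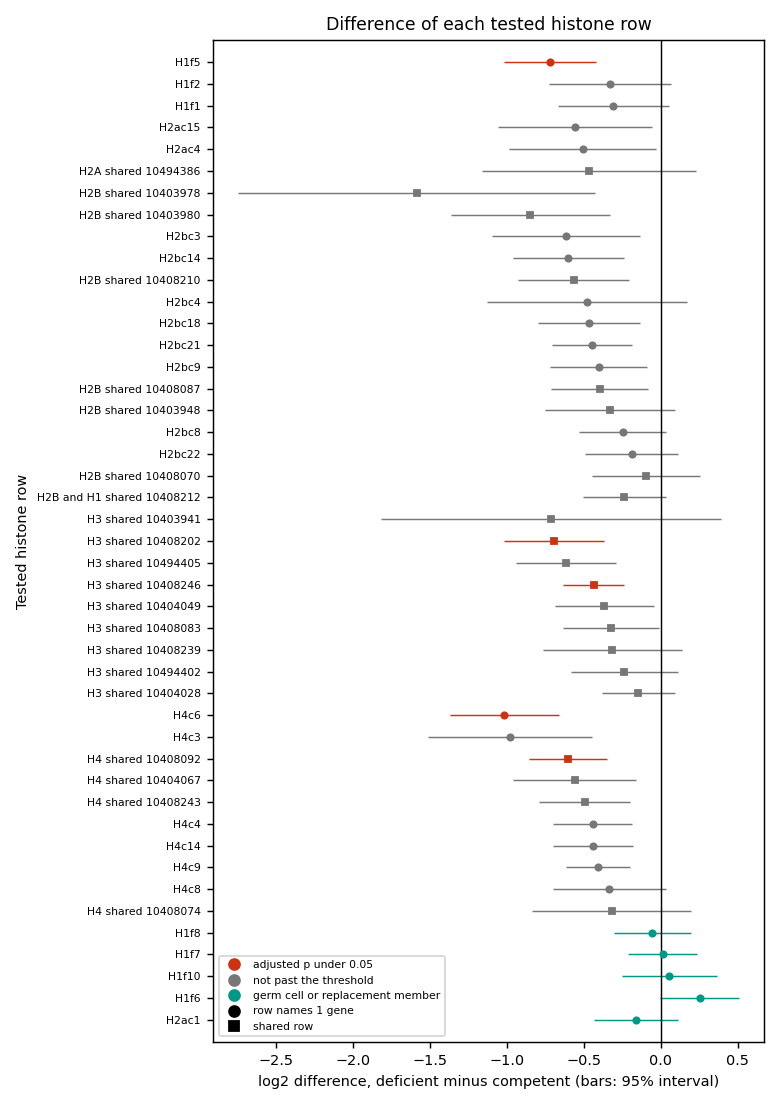
Log2 difference (deficient minus competent, horizontal axis) with its 95% interval from limma for each of the 45 tested histone rows, ordered by histone class; circles are rows of 1 gene and squares are shared rows. All 40 replication-dependent rows lie left of 0, the 5 rows in red passed the threshold, and the 5 germ cell and replacement rows at the bottom lie between -0.16 and 0.25.

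The arrays themselves show the spread behind these counts. The median level of the 40 rows was 8.69, 8.69 and 8.39 in competent 1, 2 and 3, and 7.94, 7.93 and 7.86 in deficient 1, 2 and 3. The groups did not overlap in this median. Competent 3 was the lowest competent array in 26 of the 40 rows, and deficient 1 the lowest deficient array in 20. The highest of the 6 arrays was a competent one in all 40 rows, and the lowest a deficient one in 38. Both counts follow in part from the lower deficient mean in all 40 rows, and they were not made over all rows.

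**Figure D2:**
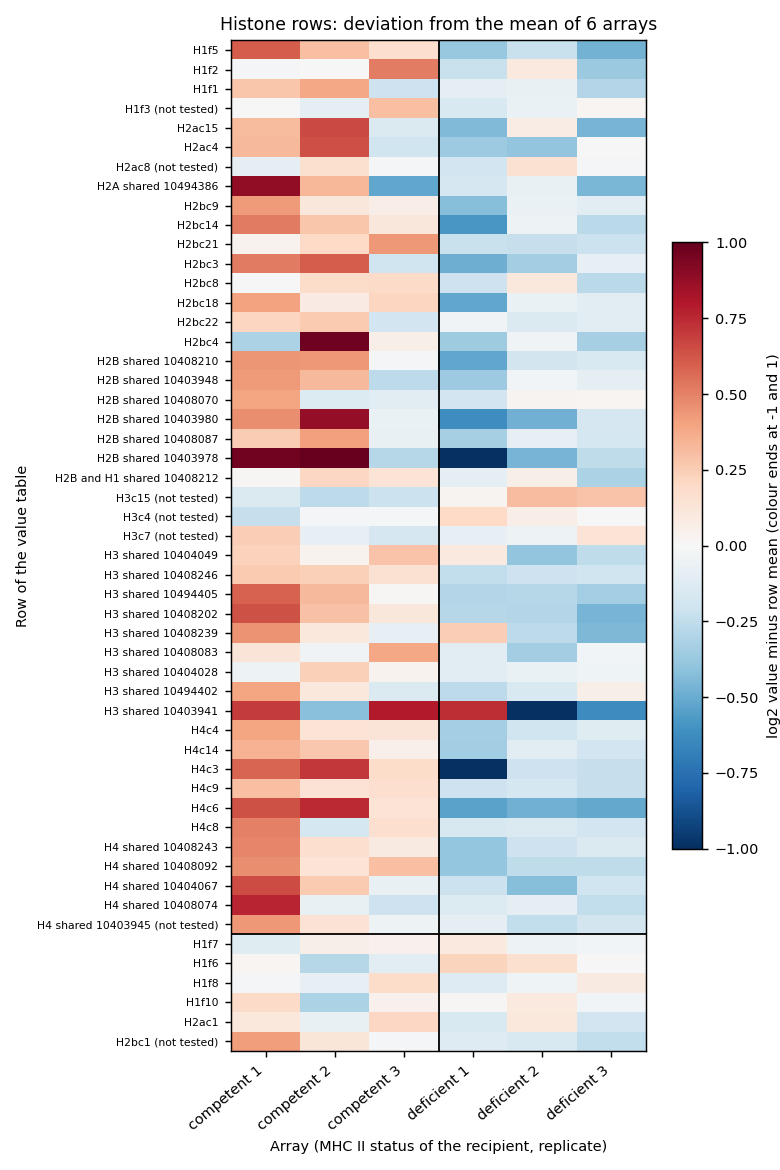
Each of the 52 member rows (vertical axis) in each of the 6 arrays (horizontal axis), as its log2 value minus the row's mean over the 6 arrays, with red above and blue below that mean and colours ending at -1 and 1. The competent arrays are mostly red and the deficient arrays mostly blue above the lower black line, with competent 3 the palest competent array, and of the 6 germ cell and replacement rows under that line 1, H2bc1, has all 3 deficient arrays below the competent ones.

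The groups lay apart in most H4 rows. H4 genes encode the histone whose acetylated tail marks newly made chromatin, and nearly all of them encode the same protein. Of 10 H4 rows tested, 2 fell, 10 lay lower, and in 8 the groups did not overlap. Over all rows tested, 1.19% were called lower, and in 11.7% all 3 deficient arrays lay below all 3 competent arrays. The median difference of the 10 H4 rows was -0.47.

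H4c6 had the largest fall among the rows that passed. It stood at 8.69, 8.79 and 8.18 in the competent arrays and at 7.51, 7.57 and 7.53 in the deficient arrays. The deficient arrays lay close together and well below the lowest competent one. H4c6 was 2.02-fold lower (log2 difference -1.02, SE 0.15, 95% interval -1.37 to -0.66, limma adjusted p = 0.018). With 1 array left out its adjusted p ran from 0.0033 to 0.076, and of these 6 fits it passed in the 1 without competent 3.

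The shared H4 row 10408092 names 11 H4 genes and was among the brightest member rows. Its values were 10.35, 10.02 and 10.19 in the competent and 9.50, 9.63 and 9.63 in the deficient arrays, with no overlap. The row was 1.52-fold lower (-0.60, SE 0.11, limma adjusted p = 0.034), and without any 1 array the adjusted p lay between 0.055 and 0.14.

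H4c3 had a difference nearly as large as that of H4c6 with more spread. It stood at 8.73, 8.86 and 8.33 in the competent and at 7.12, 7.95 and 7.92 in the deficient arrays, and deficient 1 was the lowest by far. The difference was -0.98 (SE 0.23, limma adjusted p = 0.075). H4c4, the brightest histone row of all, stood at 11.60, 11.35 and 11.34 against 10.87, 11.01 and 11.09, and its groups did not overlap either (-0.44, SE 0.11, limma adjusted p = 0.088). H4c9 (-0.41, adjusted p = 0.062) and H4c14 (-0.44, adjusted p = 0.094), the latter of the Hist2 cluster, gave much the same difference without overlap and without passing. H4c8 (-0.33) lay near the filter value at a mean of 5.23, and its groups overlapped. The other 3 tested shared H4 rows name the same 11 genes as row 10408092 and differed by -0.56, -0.49 and -0.32.

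H3 was seen almost wholly through shared rows. Its replication-dependent genes encode H3.1 and H3.2, which differ from the replacement form H3.3 by a few residues. The 3 rows that name a single H3 gene (H3c4, H3c7 and H3c15) had means between 3.74 and 4.74, under the filter, and were not tested. In these dim rows the deficient mean was the higher one, and the values of all 6 arrays lay between 3.57 and 5.04. H3c15 stood at 4.59, 4.47 and 4.52 in the competent and 4.76, 5.04 and 5.02 in the deficient arrays, a difference of 0.41. H3c4 differed by 0.17 and H3c7 by 0.005. In H3c15 and H3c4 all 3 deficient arrays lay above all 3 competent arrays, as did 11.5% of all rows tested. The 9 shared rows name the same 12 genes each, yet their means ran from 5.43 to 10.1, so rows with the same annotation differed widely in level. Of the 9, 2 fell, all lay lower, and in 3 the groups did not overlap. Over all rows tested, 1.19% were called lower, and 11.7% lay lower without overlap.

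Row 10408246 was the tighter of the 2 that fell, at 9.40, 9.37 and 9.29 in the competent and 8.89, 8.93 and 8.94 in the deficient arrays. The arrays of each group lay within a narrow band and apart from the other group. It was 1.35-fold lower (-0.44, SE 0.09, limma adjusted p = 0.045). Row 10408202 stood at 8.97, 8.62 and 8.45 against 8.05, 8.04 and 7.87, a 1.62-fold difference (-0.69, SE 0.14, limma adjusted p = 0.048). Both calls sat close to the threshold: with 1 array left out the adjusted p ran from 0.051 to 0.17 for the first and from 0.030 to 0.14 for the second, which passed in the 1 of these 6 fits without competent 3.

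Row 10494405 came next, without overlap of the groups (-0.61, SE 0.14, limma adjusted p = 0.070). The brightest shared H3 row, 10404049, differed by -0.37 (SE 0.14, adjusted p = 0.23), and deficient 1 at 10.18 lay above competent 2 at 10.13. Row 10403941 had the largest H3 difference (-0.71) and by far the widest spread, with 6.13, 5.01 and 6.22 in the competent and 6.17, 4.25 and 4.80 in the deficient arrays. Its groups overlapped fully on deficient 1, and its SE was 0.48. The smallest H3 difference was -0.14, in row 10404028.

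**Figure D3:**
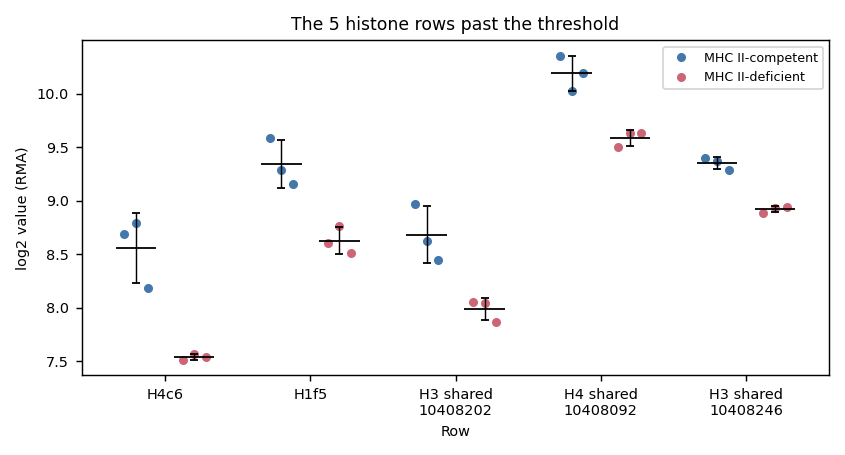
Log2 values of the 5 histone rows past the threshold in each of the 6 arrays (points), with the mean and SD of the 3 arrays of each group (black lines). In all 5 rows the 3 deficient arrays lie below the 3 competent arrays, with deficient means of 7.54 for H4c6 and 8.63 for H1f5 against competent means of 8.55 and 9.34.

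Among the linker histones 1 fell. H1 proteins compact the chromatin fibre, and their genes differ enough in sequence that 4 rows name 1 of them alone. Of the 3 tested, H1f5 fell, and H1f1 and H1f2 lay lower without passing. Over all rows tested, 1.19% were called lower. H1f5, which encodes H1.5, stood at 9.59, 9.29 and 9.15 in the competent and at 8.61, 8.76 and 8.51 in the deficient arrays. The lowest competent array lay above the highest deficient one. H1f5 was 1.64-fold lower (-0.72, SE 0.13, limma adjusted p = 0.034), with adjusted p from 0.029 to 0.12 when 1 array was left out, past the threshold in the 1 of these 6 fits without competent 3.

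H1f2, which encodes H1.2, showed another pattern of arrays, at 8.20, 8.22 and 8.73 in the competent and 8.00, 8.32 and 7.85 in the deficient arrays. Here competent 3 was the highest array and deficient 2 lay above competent 1 and 2 (-0.33, SE 0.17, limma adjusted p = 0.38). H1f1 stood at 7.86, 7.97 and 7.37 against 7.48, 7.50 and 7.29, with overlap through competent 3 (-0.31, adjusted p = 0.36). H1f3 had a mean of 4.87 and was not tested. H1f4 was measured only in a row it shares with H2bc6, which differed by -0.24 (limma adjusted p = 0.35).

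H2B was the class with the most rows, and 0 of its 14 tested rows passed. H2B pairs with H2A in the dimers that leave and rejoin nucleosomes during transcription. All 14 rows lay lower, with a median of -0.46, 9 of them at an unadjusted p under 0.05, and in 7 the groups did not overlap. Over all rows tested, 9.67% were lower at that unadjusted p (limma), and 11.7% lay lower without overlap. H2bc14 stood at 9.43, 9.19 and 9.02 against 8.33, 8.87 and 8.64 without overlap (-0.60, SE 0.16, limma adjusted p = 0.098). H2bc21, of the Hist2 cluster, stood at 8.15, 8.32 and 8.55 against 7.89, 7.89 and 7.90. Its deficient arrays were nearly equal, and competent 3 was the highest array (-0.45, SE 0.11, limma adjusted p = 0.094).

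H2bc9 (-0.40) and H2bc18 (-0.47) were also lower in all 3 deficient arrays, with adjusted p of 0.19 and 0.15. H2bc3, with 7.50, 7.58 and 6.78 against 6.49, 6.63 and 6.89, had a larger difference (-0.62, limma adjusted p = 0.19), and deficient 3 lay above competent 3. In H2bc4 (-0.48) competent 2 stood apart at 6.85, with the other competent arrays at 5.56 and 5.94 and the deficient arrays between 5.52 and 5.84. H2bc8 (-0.25) and H2bc22 (-0.19) overlapped.

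The largest difference of any member was in the shared H2B row 10403978, which did not pass. It stood at 8.03, 8.76 and 6.78 in the competent and at 5.41, 6.60 and 6.81 in the deficient arrays. Deficient 3 lay above competent 3, and the spread within each group was wide. The difference was -1.59 (SE 0.51, 95% interval -2.74 to -0.43, limma adjusted p = 0.16), and it was between -2.13 and -1.13 with 1 array left out. The row names 14 H2B genes of the rule, as do rows 10403980 (-0.85) and 10408087 (-0.40). The brightest H2B row, 10408210, stood at 10.87, 10.86 and 10.40 against 9.91, 10.25 and 10.28 (-0.56, SE 0.16, limma adjusted p = 0.11). Row 10408070 had the smallest difference of all 40 rows (-0.10), and its sign turned without competent 1 (0.08).

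For H2A 3 rows were tested and 0 passed. The class is thinly covered: 1 shared row names 17 histone genes, all H2A genes but H3c4, and H2ax besides. H2ac15 was the brightest, at 9.52, 9.86 and 9.05 in the competent and 8.75, 9.27 and 8.73 in the deficient arrays. Deficient 2 lay above competent 3, so the groups overlapped (-0.56, SE 0.22, limma adjusted p = 0.24). H2ac4 stood at 6.64, 6.95 and 6.11 against 5.95, 5.92 and 6.31, with deficient 3 above competent 3 (-0.51, adjusted p = 0.26). The shared row, at a mean of 5.32, differed by -0.46 with an SE of 0.30, and H2ac8, at a mean of 3.59, was not tested.

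The medians were close between the histone clusters and between kinds of row. The rows of 1 gene from the Hist1 cluster, on chromosome 13, had a median of -0.46 over 16 rows tested, and those of the Hist2 cluster, on chromosome 3, -0.45 over 3 rows. In all 3 tested Hist2 rows, and in 7 of the 16 tested Hist1 rows, the deficient arrays all lay below the competent ones. The same held for 11.7% of all rows tested. H3c15, a Hist2 row under the filter and not tested, lay higher in the deficient group without overlap (0.41). The 19 rows of 1 replication-dependent gene had a median of -0.45, with 2 called, and the 21 shared rows -0.44, with 3 called. Of all rows tested, 1.19% were called lower. Rows that share genes are not independent of each other, and a row that names 1 gene can still bind transcripts of its near copies.

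**Figure D4:**
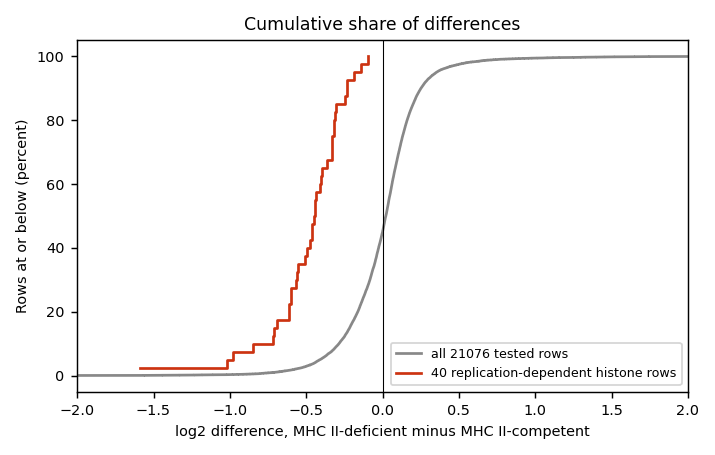
Cumulative share of rows (vertical axis, percent) by log2 difference (deficient minus competent, horizontal axis, drawn from -2 to 2) for all 21076 tested rows in grey and the 40 replication-dependent histone rows in red. The red line reaches 100 percent before 0, with its median at -0.44, while 45% of all rows lie below 0.

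The tested germ cell members and H1f10 differed by -0.16 to 0.25. Among the 5 such rows tested, 2 lay lower, 3 higher and 0 passed, and the groups overlapped in all 5. Of all rows tested, 11.7% lay lower and 11.5% higher without overlap. H1f6, the testis linker histone, stood at 5.42, 5.12 and 5.30 in the competent and at 5.63, 5.57 and 5.40 in the deficient arrays, the highest difference of any tested member (0.25, SE 0.11, limma adjusted p = 0.30). H1f7, which encodes a spermatid linker histone, differed by 0.01 and H1f8, which encodes the oocyte one, by -0.06. The sign of H1f7 turned under quantile normalization and median centring and without competent 1 or deficient 1, and that of H1f8 without competent 3.

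H2ac1, which encodes a testis H2A, lay at a mean of 7.52, brighter than many replication-dependent rows, with 7.63, 7.45 and 7.73 against 7.37, 7.63 and 7.33 (-0.16, limma adjusted p = 0.54). H2bc1, its partner gene, had a mean of 4.95, under the filter, and was not tested. It stood at 5.36, 5.07 and 4.94 against 4.82, 4.80 and 4.70, a difference of -0.35 without overlap of the groups. H1f10, which encodes the replication-independent linker histone H1.10, stood at 6.94, 6.44 and 6.80 against 6.77, 6.85 and 6.73 (0.06, SE 0.14), and its sign turned without competent 2 (-0.09). The difference between these rows and the replication-dependent ones was not tested.

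Promoters of the histone genes carry short elements that are typical of each class. RefSeq promoter windows of the GRCm38.p6 build, from 250 bases before to 50 after the start of the gene, were found for 61 of the 66 genes. Below are the 130 bases upstream of the start of 4 genes. They show motif matches, not all of them typical of the class, in an H4 gene that fell, the H4 gene with the next difference, the H1 gene that fell and an H2B gene without overlap. Capitals mark exact matches to the motifs named after them.

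H4c6, chr13:23551669-23551798, minus strand: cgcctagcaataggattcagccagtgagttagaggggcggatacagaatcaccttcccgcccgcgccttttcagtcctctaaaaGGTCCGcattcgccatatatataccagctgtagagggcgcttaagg
H4c3, chr13:23698459-23698588, minus strand: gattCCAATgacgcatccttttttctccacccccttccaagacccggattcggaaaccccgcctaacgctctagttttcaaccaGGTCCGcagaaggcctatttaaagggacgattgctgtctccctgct
H1f5, chr13:21780626-21780755, minus strand: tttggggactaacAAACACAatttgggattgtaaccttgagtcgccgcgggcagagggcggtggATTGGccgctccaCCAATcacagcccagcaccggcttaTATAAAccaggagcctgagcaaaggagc
H2bc14, chr13:21721914-21722043, plus strand: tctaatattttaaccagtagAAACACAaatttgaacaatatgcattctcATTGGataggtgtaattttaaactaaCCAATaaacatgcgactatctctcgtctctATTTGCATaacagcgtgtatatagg

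Each motif was searched as exact letters on both strands of the whole 300-base window, among 56 windows of replication-dependent genes. The H4 element core GGTCCG, part of the site of the H4 regulator HINFP, was in 10 of 11 H4 windows, in 1 H2B and 1 H3 window, and in 8.31% of all 32544 windows. In both H4c6 and H4c3 it began 46 bases before the start. The octamer ATTTGCAT, which Oct-1 binds in H2B promoters, was in 6 of 14 H2B and 5 of 16 H2A windows, in 0 of the others and in 1.75% of all windows. Of the 16 H2A windows, 8 overlap an H2B window on the other strand, so the same letters can count for both genes. The H1 box AAACACA was in 4 of 5 H1 windows, in 1 H2A and 1 H2B window, and in 7.2% of all windows. That H2B window is the one of H2bc14 shown above. The CCAAT box was in every H1, H2A, H2B and H3 window but only 3 of the H4 windows, that of H4c3 among them, against 37.4% of all. The TATA box TATAAA was in 32 of the 56, against 13.6%. The 5 motifs do not overlap in the bases shown. A match is a match of letters and says nothing of what bound there in these cells.

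Genes that regulate or carry histones had medians between -0.23 and -0.08. They were compared with the same fit, 1 row per gene. In 7 of 14 genes of histone gene transcription all 3 deficient arrays lay below all 3 competent arrays, as did 11.7% of all rows tested. Over all rows, 1.19% were called lower. Of the 14 genes 1 fell and 0 rose, with a median of -0.23. That gene was Ccne2, which encodes a cyclin E, at 7.91 ± 0.11 in the competent and 7.38 ± 0.12 (SD, n = 3) in the deficient group (-0.53, SE 0.11, limma adjusted p = 0.044). Its call was lost without each single array, with no filter, under quantile normalization, under the trended robust prior and with the replicate block. Npat, the coactivator of all histone clusters, differed by -0.21 (adjusted p = 0.43), Casp8ap2, which encodes its partner FLASH, by -0.24 (0.25) and E2f1, a transcription factor of S phase entry, by -0.30 (0.23).

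Of 22 genes of histone mRNA processing and decay, 0 passed, with a median of -0.08 and 16 lying lower (limma). In 4 of the 22 all 3 deficient arrays lay below all 3 competent arrays, against 11.7% of all rows tested. Slbp, which encodes the stem-loop binding protein, stood at 9.30 ± 0.05 against 8.93 ± 0.07 (SD, n = 3). Its groups did not overlap, and it missed the threshold (-0.37, SE 0.09, limma adjusted p = 0.081). Of 21 histone chaperone and acetylation genes, 0 passed, with a median of -0.14 and 17 lower. In 8 of the 21 the deficient arrays all lay below the competent ones, against the same 11.7%. Nasp, a chaperone of H3 and H4, differed by -0.38 (adjusted p = 0.15), Chaf1b, a subunit of the chromatin assembly factor, by -0.24 (0.37) and Asf1b, the H3-H4 chaperone of dividing cells, by -0.11 (0.78), its sign turning without competent 1 (0.02).

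Replacement variants, many but not all of them made through the whole cell cycle from mRNAs with poly(A) tails, had a median of -0.18 over 8 genes tested, H1f10 included, with 0 past the threshold. H2ax, whose product is phosphorylated at DNA breaks, came nearest, at 8.52 ± 0.05 against 7.87 ± 0.27 (SD, n = 3; -0.65, SE 0.14, limma adjusted p = 0.053). Its mRNA also has a stem-loop form made in S phase, and the shared H2A row names H2ax too. Cenpa, the centromeric H3, differed by -0.31 (adjusted p = 0.21) and H2az1, which encodes H2A.Z, by -0.16 (0.43). In 5 of the 8 genes all 3 deficient arrays lay below all 3 competent arrays, against 11.7% of all rows tested.

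Genes of DNA replication and proliferation lay lower with the histones. In 19 of 28 tested, all 3 deficient arrays lay below all 3 competent arrays, as did 11.7% of all rows tested. Over all rows, 45% lay lower and 1.19% were called lower. Of the 28 genes, 27 lay lower, 3 fell and 0 rose, and the median was -0.35. The 3 were Mcm3, a subunit of the replicative helicase (-0.56, limma adjusted p = 0.024), Rfc4, of the clamp loader (-0.51, 0.036), and Mki67, the proliferation marker (-0.58, 0.047). The list's count of lower genes was 0 without competent 1, competent 2, deficient 1 or deficient 2. It was 1 without deficient 3, where none of Mcm3, Rfc4 and Mki67 passed, and 4 without competent 3, where Mki67 did not pass (limma adjusted p = 0.076). Pcna, the replication clamp, differed by -0.42 (adjusted p = 0.31). The mean of the 28 genes was 9.41, 9.33 and 9.15 in competent 1, 2 and 3 and 8.85, 8.95 and 8.97 in deficient 1, 2 and 3. Competent 3 was the lowest competent array and deficient 1 the lowest deficient array in this mean. In the mean of the 40 histone rows competent 3 (8.21) and deficient 1 (7.85) were also the lowest of their groups. In the median of those rows deficient 1 was the highest deficient array, at 7.94 against 7.93 and 7.86. Whether the share of cells in S phase sets the histone values was not tested.

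**Figure D5:**
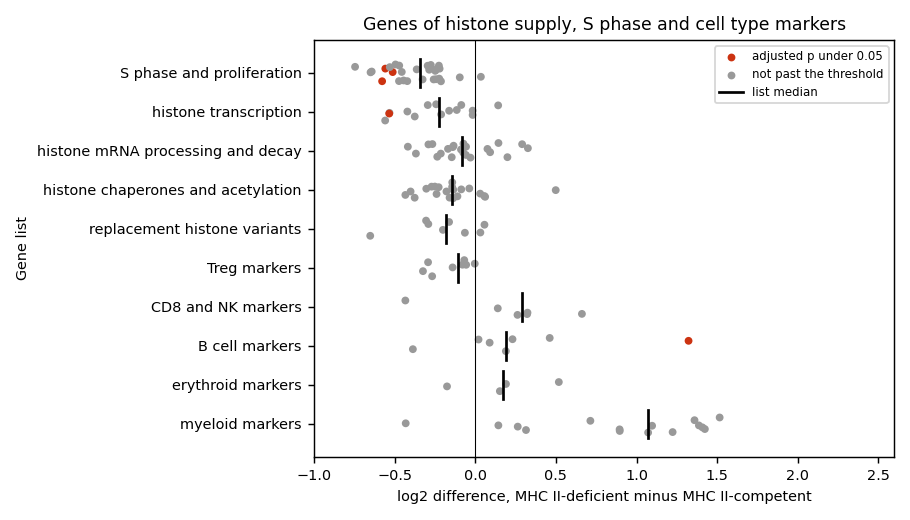
Log2 difference (deficient minus competent, horizontal axis) of each tested gene of 10 lists (vertical axis, spread within a list only to separate points), with red for an adjusted p under 0.05 and a black line at each list's median. The proliferation list has a median of -0.35, the lists of histone transcription, processing, chaperones and variants lie between -0.23 and -0.08, and the myeloid markers have a median of 1.07.

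Markers of other cells were followed as well. Of 15 myeloid markers tested, 14 lay higher in the deficient group and 0 passed (median 1.07, limma). The remaining marker, Itgam, lay lower without overlap of the groups (-0.43). Adgre1, Csf1r, C1qa and Tyrobp, all higher, lay above the filter in both groups. The mean of the 15 was 6.52, 6.91 and 5.89 in the competent and 7.73, 7.43 and 6.82 in the deficient arrays. The range was thus 5.89 to 6.91 against 6.82 to 7.73. B cell markers had a median of 0.19 over 7 genes (mean 5.84 to 6.03 against 6.18 to 6.28), with Cd22 higher past the threshold (1.32, limma adjusted p = 0.00525). Of the 7, 6 lay higher, among them Pax5 by only 0.02. The other 1, Cd79b, lay lower without overlap of the groups (-0.39). Erythroid markers (0.17 over 4 genes, mean 5.61 to 5.87 against 5.83 to 5.96) and CD8 and NK markers (0.29 over 6 genes, mean 7.19 to 7.41 against 7.41 to 7.54) had 0 past the threshold. Of the erythroid markers 3 lay higher and 1, Car1, lower without overlap (-0.18). Of the CD8 and NK markers 5 lay higher and 1, Gzmb, lower without overlap (-0.43). The 8 Treg markers, Cd3e, Cd3g and Cd4 among them, had a median of -0.11 with 0 past the threshold (mean 10.94 to 11.13 against 10.86 to 10.94). All 8 lay lower, from -0.33 in Ctla4 to -0.004 in Tnfrsf18. In 4 of the 8 all 3 deficient arrays lay below all 3 competent arrays, as did 11.7% of all rows tested. The part of these cells in the histone values was not tested.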

How the data were processed

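The 6 single-colour Affymetrix whole-transcript arrays were labelled from 100 ng of total RNA each, per the labels' protocols. The authors deposited 1 log2 value per row and array, and the submitters' processing notes name affy and RMA (robust multi-array averaging, which corrects background, equalises the arrays and summarises probes). The log base, taken as 2, fits the deposited values of 2.40 to 13.3, while software versions, annotation and genome build are not given in the sources used here. Array medians lay between 6.11 and 6.25. Rows were named from the platform annotation (21640 rows with 1 symbol, 1321 with several, 5140 with none), with list symbols matched through the GRCm38.p6 RefSeq table, used for names only. Rows with several symbols or none stayed in the fit, the adjustment and the shares over all rows where they reached the filter. Only the alternative with 1 row per gene left them out. Of the rows with several symbols, only the shared histone rows were described.

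The main test was limma 3.58.1 in R 4.3.3 (functions lmFit and eBayes, default prior, two-sided, without covariates), run on the deposited log2 values of the 21076 rows at or above the filter, with 4 residual and 8.42 total degrees of freedom. Errors are limma's SE or SD over 3 arrays. The fit was also run on simulated data with known changes, in which each row was drawn independently of the others. Lists were described by counts and medians without a set test. The members and lists were chosen with earlier results of these data known. Named members were those past the threshold and, in each class, the brightest row and the largest and smallest differences, plus the germ cell and replacement members. Other members were described with their values known. Alternatives were the filter, 1 row per gene, the normalization, the prior, array weights, the replicate block and leaving out each array. H1f0 and H3f3b, listed as named genes, have no row of their own here and were not used.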

Additional observations from a re-analysis of the deposited data

How the results depend on the processing

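The count of member rows called lower was 5 and became 1 under quantile normalization, and 3 with the replicate block. With 1 array left out it ran from 0 to 9. With no filter it was 4, with a filter at the median 6, with 1 row per gene 4 (of 23 tested), with median centring 5, with the trended robust prior 6 and with array weights 7. The median difference of the tested members ran from -0.49 to -0.37 with 1 array left out and was -0.36 under quantile normalization. The count of members called higher was 0 under every alternative run (limma), and 0 member rows had an unadjusted p under 0.05 in that direction in the main test. At that unadjusted level 2 of 52 member rows were higher with no filter. It was 1 of 45 under the trended robust prior, without competent 1 and without deficient 3.

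The replicate numbers do not pair the arrays by the labels, and the correlations of same-numbered arrays' deviations were -0.02, -0.15 and 0.06. The replicate block is therefore given only as an alternative setting. The count of lower genes of histone transcription, 1, was 0 with no filter, under quantile normalization and with the replicate block and without any single array, and 2 with a filter at the median or 1 row per gene. The count of lower S phase genes, 3, was 5 with a filter at the median or 1 row per gene, 1 with the replicate block (none of the 3, with adjusted p of 0.052 for Mcm3, 0.071 for Rfc4 and 0.071 for Mki67), and 0 to 4 with 1 array left out. Chaperones had 1 lower with array weights, replacement variants 1 lower with a filter at the median, 1 row per gene or the trended robust prior, and processing genes 1 higher without competent 3 (0 to 1). Signs turned for H1f7 (-0.034 under quantile normalization, -0.041 with median centring) and, with 1 array left out, for H1f7 (-0.045 to 0.046), H1f8 (-0.115 to 0.022), H1f10 (-0.087 to 0.165), Asf1b (-0.286 to 0.020) and row 10408070 (-0.188 to 0.077). Over the named genes and rows, 394 of the alternatives kept the direction and the side of the threshold, 68 lost the call, 6 gained it and 8 turned the sign. The cause was not tested. The number of arrays limits the precision, and detection calls were not used here.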
